A study of Mus musculus with 2 samples.

Results

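N6-methyladenosine (m6A) is placed on mRNA by a multi-protein writer complex whose catalytic subunit is METTL3, and the 8 genes described here encode its partners and one related enzyme: Mettl14, Wtap, Virma, Zc3h13, Rbm15, Rbm15b, Cbll1 and Mettl16. They were chosen by name, and Mettl3 itself was left out. Every listed position that lay within an exon of one of these genes on the same strand (GENCODE M21, GRCm38) was taken, which gave 185 of the 160430 positions in the deposited lists. All 185 lay in exons of 1 gene only. Such positions mark where a tool called m6A in the transcripts of the writer genes themselves, and they are not a measure of how strongly the genes were expressed.

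The samples were poly(A) RNA from mouse 129 embryonic stem cells (mESCs), either wild-type (WT) or Mettl3 knockout (KO), each sequenced as native RNA on a nanopore flow cell. The KO cells carried drug resistance genes, for puromycin and hygromycin, in place of Mettl3 exons 5 to 7 on both alleles, and came from colonies that survived both drugs. There was 1 library per condition, so no test between WT and KO was possible. All intervals (95%, Wilson for shares and exact for ratios) cover counting error only. They treat positions as independent, though each gene held several. There was a pair of lists, WT and KO, for xPore and for the 6 tools that read 1 library at a time (single-mode): Tombo, Epinano, MINES, ELIGOS, Nanom6A and m6Anet. DRUMMER, DiffErr and Nanocompore compared the libraries and gave 1 list apiece, called comparison lists here. A line named the transcript or gene and its stranded position, without score, methylation rate or coverage, so the depth behind a position is unknown and an unlisted position cannot be told apart from one with too few reads.

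METTL14 forms a heterodimer with METTL3 and helps to bind the substrate RNA. WTAP is the adaptor that holds the heterodimer in nuclear speckles, VIRMA (the mammalian Virilizer) is a large scaffold, ZC3H13 helps to retain the complex in the nucleus, RBM15 and RBM15B are paralogous RNA-binding proteins that recruit it, and CBLL1 (HAKAI) is a RING-finger protein bound to it. METTL16 is a separate methyltransferase that acts on U6 snRNA and on hairpins of the Mat2a mRNA. m6A of mRNA lies mostly in the sequence RRACH (R is A or G, H is A, C or T), often near stop codons and in long exons.

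The sequences below are those the results turn on. In Wtap, 5 positions were listed by at least 5 of the 10 tools in WT. Each line gives 21 bases on the strand of the transcript, 5′ to 3′ and in the DNA alphabet, with the RRACH 5-mer in capitals and the listed A at its centre (GRCm38, 1-based positions on the minus strand of chromosome 17, all in the 3′ UTR of the short Wtap transcript).
Wtap chr17:12975201: ccacaccaAGACTcagacttt
Wtap chr17:12975062: atgccgtcGGACTattccgaa
Wtap chr17:12975017: cccttctaGGACAtgtagaca
Wtap chr17:12974717: cctttaaaGGACTtacttatg
Wtap chr17:12974526: ttaaccaaGGACTgtacaaac

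For each of the other genes the position listed by most tools in WT is shown, in the same form. Ties were settled by the fewest KO lists and then by the order along the transcript. The genes lie on the minus strand, except Virma, Zc3h13 and Mettl16 on the plus strand.
Mettl14 chr3:123372592: aaagacaaAGACTctagatcc
Virma chr4:11513450: ggtagactGGACAatgcaagc
Zc3h13 chr14:75343908: atcttcagAGACAcgtgcttt
Rbm15 chr3:107326255: gctctaatGGACCtttttgaa
Rbm15b chr9:106885817: cagaatctGGACAtggcacac
Cbll1 chr12:31487588: ctccccctGGACAtattattg
Mettl16 chr11:74784124: aggactttGGACTttctattg

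Of the 185 positions, 130 were listed for WT (none of them by a comparison alone) and 122 for KO. The 185 split into 63 listed in WT only (34.1%, interval 27.6% to 41.1%), 67 listed in both libraries (36.2%, 29.6% to 43.4%) and 55 listed in KO only (29.7%, 23.6% to 36.7%). Over all positions in the lists the WT-only share was 32.9%, near that of the writer genes, the share in both was 47.5%, and the KO-only share was 19.6%. The last 2 lay outside the intervals of the writer genes. Rbm15 held 19 of the 55 KO-only positions. Without Rbm15 the KO-only share was 22.1% (36 of 163, 16.4% to 29.1%), and this interval held the 19.6% of all positions. Of the 67 positions in both libraries, 61 were listed in WT and KO by at least 1 same tool, and 6 by different tools only.

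None of the 185 positions was in the Nanocompore, DiffErr or DRUMMER list, where 1.97% of all positions in the lists were found. By gene this was the common case: 79.5% of the 6765 coding genes with at least 10 listed positions had none in these 3 lists. All 8 writer genes were among the 6765.

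The genes differed in both number and balance of listed positions. Wtap had 32 positions in WT and 15 in KO. Virma had 26 and 24, Rbm15b 20 and 14, Cbll1 15 and 15, Mettl16 15 and 14, Mettl14 10 and 9, and Zc3h13 9 and 9. Rbm15 went the other way, with 3 in WT and 22 in KO. The WT count was at least 2 times the KO count in Wtap alone of the 8, as in 15.6% of coding genes with at least 10 positions. The KO count exceeded the WT count in Rbm15 alone, as in 24.1% of such genes, and it was at least 7 times the WT count in Rbm15 and in 2.68% of such genes.

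**Figure D1:**
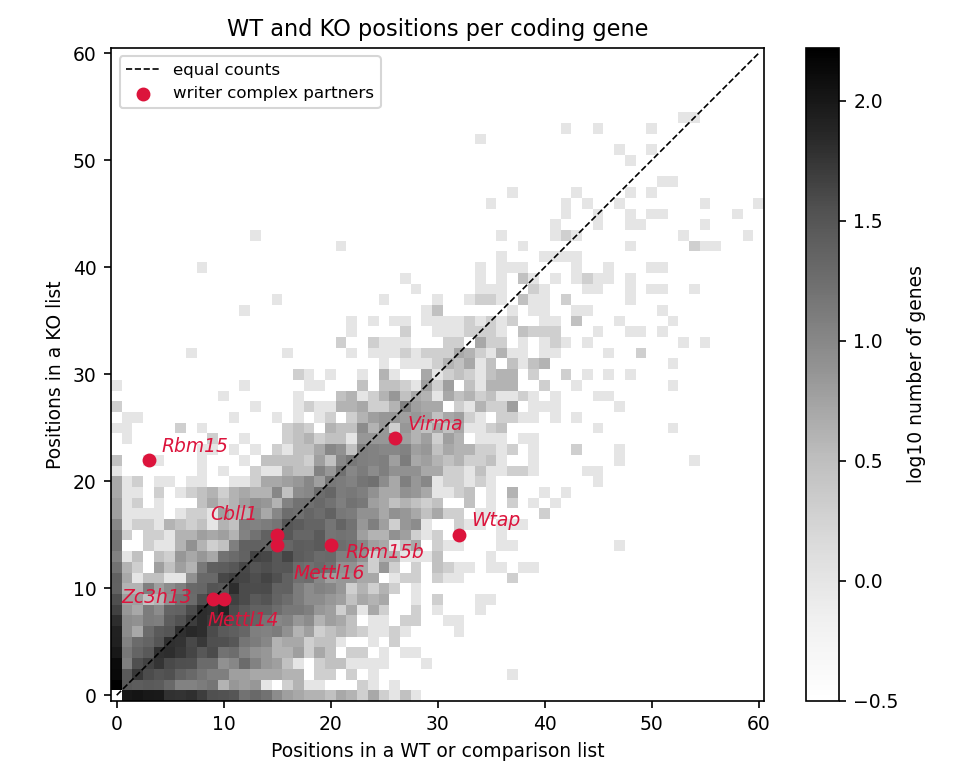
Number of listed positions per coding gene listed for WT, comparison lists included (x axis), and for KO (y axis). Grey squares count 10107 genes on a log10 scale, with 26 genes beyond the axes not drawn, red points are the 8 writer genes and the dashed line marks equal counts. Wtap, at 32 and 15, lies below the line, Rbm15, at 3 and 22, far above it, and the other 6 near it.

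The tools contributed unequally. Tombo listed 88 positions of the writer genes in WT and 94 in KO, and Epinano 65 and 14. MINES listed 17 and 13, Nanom6A 13 and 8, m6Anet 17 and 11, ELIGOS 7 and 1, and xPore 1 and 1. The ratio of KO to WT positions was 1.07 for Tombo (exact interval 0.79 to 1.45), against 0.905 over all its positions, and 0.215 for Epinano (0.112 to 0.388), against 0.339. For MINES, Nanom6A, m6Anet and ELIGOS, as for Tombo and Epinano, the interval held the ratio of the whole lists. These intervals treat the WT and KO counts as separate draws, although positions in both lists (50 for Tombo) enter both counts. Wtap decided the ratio of 3 tools. Without it the ratio was 3.67 for m6Anet in place of 0.647 (0.969 to 20.5), which left out the 0.58 of its whole lists. For Nanom6A it was 2.33 in place of 0.615 (0.533 to 14.0), which still held the 0.831 of its whole lists. For ELIGOS it was 1.0 in place of 0.143, from 1 position in each library (0.0127 to 78.5).

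Within each tool, the positions listed in WT but not in KO were counted among those listed in either. For Tombo this share was 38 of 132 (28.8%), against 30.8% of all its positions, for Epinano 56 of 70 (80.0%) against 71.1%, and for MINES 13 of 26 (interval 32.1% to 67.9%) against 45.9%. For m6Anet it was 17 of 28 (60.7%, interval 42.4% to 76.4%) against 53.1%, but 14 of the 17 were in Wtap, and without it the share was 3 of 14 (21.4%, 7.57% to 47.6%). For ELIGOS it was 7 of 8 (87.5%) against 77.3%, with 6 of the 7 in Wtap, and without it 1 of 2. For Nanom6A it was 11 of 19 (57.9%, 36.3% to 76.9%) against 29.4%, and 10 of the 11 were in Wtap. The single xPore position, an AAACC in the 3′ UTR of Mettl16 at chr11:74818187, was in its WT list and in its KO list, so 0 of 1 was WT-only, against 62.7% of all xPore positions.

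Of the WT positions of a tool, those listed again in its KO list made up 50 of 88 for Tombo (56.8%, interval 46.4% to 66.7%), against 59.7% over its whole list. For MINES they were 4 of 17 (23.5%, 9.56% to 47.3%), against 40.2%, and for Epinano 9 of 65 (13.8%, 7.46% to 24.3%), against 16.5%. Nanom6A listed 2 of 13 again (15.4%, 4.33% to 42.2%), against 65.4%, and m6Anet 0 of 17 (0% to 18.4%), against 34.4%. ELIGOS listed 0 of 7 again (0% to 35.4%), against 11.5%. The m6Anet and Nanom6A shares were the 2 whose intervals left out the share of the whole list, and both rested on Wtap. Without Wtap, Nanom6A listed 2 of 3 again (66.7%, 20.8% to 93.9%) and m6Anet 0 of 3 (0% to 56.1%), and both intervals held the share of the whole list.

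**Figure D2:**
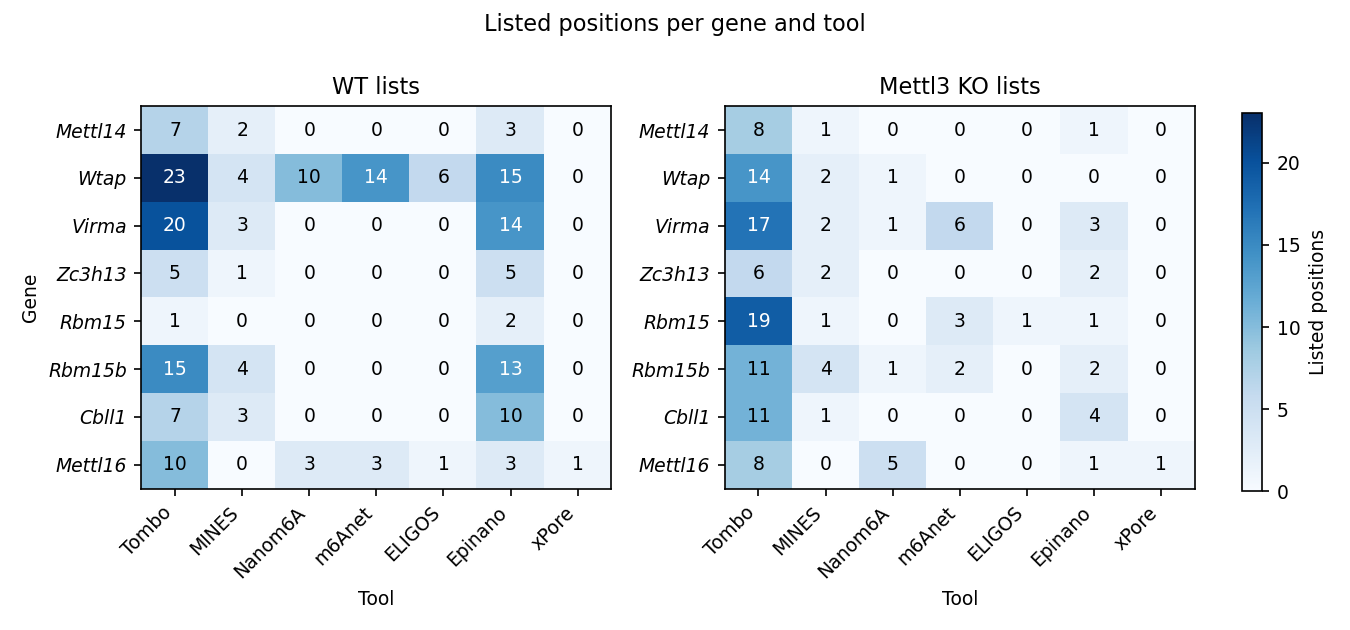
Listed positions per writer gene (rows) and tool (columns) in the WT lists (left) and the Mettl3 KO lists (right), with the count printed in each cell and shown by colour. Tombo filled every gene in both libraries. m6Anet had positions of Wtap and Mettl16 in WT only and of Virma, Rbm15 and Rbm15b in KO only.

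m6Anet, which the methods ran with a higher minimum of reads than the other tools, listed 5 of the 8 genes, each in 1 library. In WT it listed 14 positions of Wtap and 3 of Mettl16, and in KO none of either. In KO it listed 6 positions of Virma, 3 of Rbm15 and 2 of Rbm15b, and in WT none of these. Over the 5203 coding genes in an m6Anet list, 16.4% were in the WT list only and 16.4% in the KO list only. The reads per gene that would show how many genes passed the minimum in each library were not analysed here.

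Most positions rested on 1 tool. Of the 130 WT positions, 81 (62.3%) were listed by 1 tool, 32 by 2, 11 by 3, 1 by 4, 4 by 5 and 1 by 6, and over all WT or comparison positions 65.3% were listed by 1 tool. Tombo gave 46 of the 81 and Epinano 27. At least 3 tools listed 17 of the 130 (13.1%), against 12.6% of all WT or comparison positions, and 10 of the 17 were in Wtap. Without Wtap, 7 of 98 (7.14%) had 3 tools and none had more. In KO, 105 of 122 positions were listed by 1 tool, 14 by 2 and 3 by 3. The share with 1 tool was 86.1% (78.8% to 91.1%), against 76.7% of all KO positions.

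Wtap (ENSMUSG00000060475, chr17:12966796-12994169) stood apart by this count. A support of at least 5 of the 10 tools, comparison lists counted with WT, and no KO list was found at 4 positions of the 185, all 4 in Wtap, where 0.732% of all positions in the lists were of this kind. At least 1 such position was found in 12.3% of the coding genes with at least 10 listed positions, and at least 4 in 8 genes (0.118%). Each of the 4 had exactly 5 tools with Tombo among them, so that without Tombo, or with 6 tools required, none of them was left. A GGACT at chr17:12975062, 232 nt after the stop codon of the short transcript, was listed in WT by Tombo, Nanom6A, m6Anet, ELIGOS and Epinano. A GGACA at chr17:12975017, 277 nt after the stop codon, and a GGACT at chr17:12974526, 768 nt after it, were listed by the same 5 tools. A GGACT at chr17:12974717, 577 nt after the stop codon, was listed by Tombo, MINES, Nanom6A, ELIGOS and Epinano.

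The position with the most tools in the 8 genes was an AGACT of Wtap at chr17:12975201, 93 nt after the same stop codon. All 6 single-mode tools listed it in WT, and Tombo listed it in KO too. A second AGACT 6 nt downstream, at chr17:12975195, was listed by Tombo, Nanom6A and m6Anet in WT and by Tombo in KO. The sequence printed for the first position holds both, the second in lower case.

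None of the 5 Wtap positions with at least 5 tools was in the WT list of xPore or in a comparison list. Over the whole series, 682 positions had at least 5 of the 6 single-mode tools in WT and were absent from every KO list. Of these, 273 (40.0%) were in a comparison list and 499 (73.2%) in a comparison list or the WT list of xPore. The 4 positions of Wtap were in neither.

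The Wtap positions lay mainly on a short form of the transcript. Wtap has long coding transcripts of 8 exons with a coding sequence of 1188 nt, and short ones of 6 exons with a coding sequence of 453 nt, which end in an exon that runs on into what is an intron of the long form. The last exon of the short transcript ENSMUST00000160781 spans chr17:12973552-12975474 (1923 nt), and that of ENSMUST00000159986 ends 867 nt farther downstream. The last exon of the long transcript ENSMUST00000159551 spans chr17:12966796-12968051. Of the 36 Wtap positions, 22 lay in exons of these short transcripts only, 9 in exons shared with the long ones and 5 in exons of the long ones only.

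All 10 Wtap positions with at least 3 tools in WT were among the 22 of the short form. In WT, Tombo listed 17 of the 22, Nanom6A, m6Anet and Epinano 10 each, ELIGOS 6 and MINES 3. In KO, Tombo listed 9, MINES 2 and the other tools none. On the 5 positions of the long form, Epinano listed 3 and Tombo 2 in WT, while in KO Tombo listed 3 and Nanom6A 1. In all, the positions of the long form numbered 3 in WT and 4 in KO, and those of the short form 21 and 9.

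A line can name only a transcript that holds its position, so the transcripts named in the lists largely restate this split. ENSMUST00000159986 was named in 48 WT lines and 13 KO lines at Wtap positions, and ENSMUST00000160781 in 28 WT lines and 0 KO lines. The long transcripts ENSMUST00000007007 and ENSMUST00000159551 were named in 3 WT lines each, and in 1 and 2 KO lines. A position can take a line for each transcript, and the number of reads assigned to each transcript was not analysed here. Tombo and MINES listed positions of the short form in KO as well, and whether its reads differed between the libraries was not tested. The part of the read minimum of m6Anet in its absence from KO was not tested.

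In the short transcript the positions with at least 3 tools spanned 676 nt, from 93 to 768 nt after the stop codon. This stretch held 20 RRACH positions, of which 18 were in at least 1 list, but since it was bounded by listed positions its share cannot be set against that of a transcript. The last listed position of the short form lay 925 nt after the stop codon. Beyond it, 9 RRACH positions of ENSMUST00000160781 and a further 10 of the longer ENSMUST00000159986 were in no list. Over the whole of ENSMUST00000160781, 31 of 50 RRACH positions (62.0%, interval 48.2% to 74.1%) were listed, the highest share of the 8 genes. The median over all coding genes with a listed position was 37.5%. In every gene the transcript was the one that holds most listed positions, a choice that can raise such shares.

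**Figure D3:**
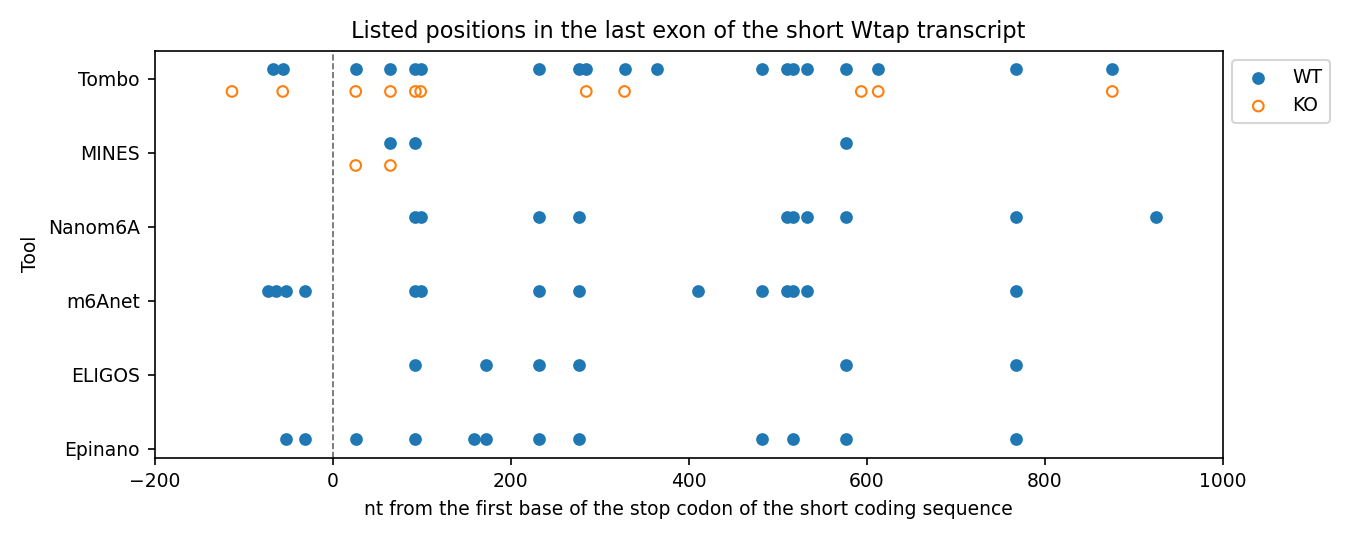
Positions listed by each single-mode tool (rows) in the last exon of the short Wtap transcript ENSMUST00000160781, by distance in nt from the first base of its stop codon (dashed line). Filled blue points are WT and open orange points KO. Between 93 and 768 nt after the stop codon all 6 tools have WT points and only Tombo has KO points.

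Rbm15 (ENSMUSG00000048109, chr3:107325421-107333673, minus strand) showed the opposite balance. Its transcript has 2 exons, a first exon of 3459 nt with nearly all of the coding sequence and a second of 884 nt with the end of it and the 3′ UTR. In the first exon 19 of 57 RRACH positions were listed, all 19 in KO and none in WT. They lay between 2699 and 146 nt before the stop codon, spread along the coding sequence, and 8 of their 5-mers were GGACA or, in 1 case, the GGACT farthest upstream. Tombo listed 17 of them and m6Anet 2, and 1 of the Tombo positions was also in the MINES KO list.

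In the second exon of Rbm15, 3 positions were listed, and all 3 were in both libraries. A GAACA at chr3:107326292, 8 nt before the stop codon, was listed by Tombo in WT and by Tombo and m6Anet in KO. The GGACC at chr3:107326255, 29 nt after the stop codon and shown above, was listed by Epinano in WT and by Tombo in KO. An AAACA at chr3:107326003, 281 nt after it, was listed by Epinano in WT and by ELIGOS and Epinano in KO. No position of Rbm15 had more than 1 tool in WT.

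Rbm15b (ENSMUSG00000074102, chr9:106880918-106887428, minus strand) is a single-exon gene of 6511 nt, and it had 20 positions in WT and 14 in KO. All 24 positions lay in the coding sequence of 2664 nt, where 24 of 48 RRACH positions were listed. The 3′ UTR of 3386 nt held 45 RRACH positions and none was listed. Of the 2682 coding genes with at least 10 listed positions and at least 20 RRACH positions in the 3′ UTR, 1.42% had none of these in a list. The last listed position of Rbm15b lay 57 nt before the stop codon.

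The highest WT support in Rbm15b was 3 tools, at 2 positions. The first was the GGACA at chr9:106885817, 1511 nt before the stop codon, listed by Tombo, MINES and Epinano in WT and by Tombo in KO. The second, a GGACC at chr9:106885347, was listed by the same 3 tools in WT and also by Tombo in KO. In KO, the GGACT at chr9:106885331, 16 nt from it, was listed by Tombo, MINES and m6Anet, and the GGACC at chr9:106885128 by Tombo, MINES and Epinano. With 1 position of Virma, these were the positions with the most KO lists in the 8 genes, and they are named here after their values were seen. Tombo and Epinano listed both in WT as well.

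Virma (ENSMUSG00000040720, chr4:11485958-11550684, plus strand) had 36 positions, as many as Wtap, with 26 in WT and 24 in KO. Tombo listed 20 in WT and 17 in KO, 12 of them in both, and Epinano 14 and 3. Of the 36, 30 lay in the coding sequence of 24 exons. Exon 8, of 1141 nt, held 10 positions, and all 10 were in WT, 6 of them in WT only. In exons 9 to 24 the balance differed, with 16 positions in WT and 20 in KO. In exons 1 to 7 no position was listed.

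Exon 8 of Virma also held its 2 positions with 3 tools. The GGACA at chr4:11513450, 4131 nt before the stop codon, was listed by Tombo, MINES and Epinano in WT, with no KO list. The AGACT 5 nt upstream, at chr4:11513445, which stands in lower case in the sequence above, was listed by Tombo in WT and by Tombo and MINES in KO. A second GGACA, at chr4:11513670, was listed by Tombo, MINES and Epinano in WT and by Tombo in KO. In the last exon, a GGACC at chr4:11549597, 100 nt before the stop codon, was listed by Tombo and Epinano in WT and by Tombo, m6Anet and Epinano in KO, the third of the positions with 3 KO lists.

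Mettl14 (ENSMUSG00000028114, chr3:123368297-123386108, minus strand) had 15 positions, of which 6 were in WT only, 4 in both and 5 in KO only. Its last exon of 1394 nt held 7, and none of these 7 was in both libraries. The 4 WT positions there, between 34 and 333 nt after the stop codon, were each listed by Tombo or MINES. The 3 KO positions followed farther downstream, between 386 and 726 nt after it, each listed by Tombo. In exon 9, the AGACT at chr3:123372592 was listed by Tombo and MINES in WT alone, while an AGACA 6 nt upstream was listed by Tombo in both.

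Zc3h13 (ENSMUSG00000022000, chr14:75284373-75344426, plus strand) had 15 positions, 9 in WT and 9 in KO. All lay within 1653 nt of the 3′ end of a transcript of 6144 nt, in exons 15 to 19 of 19. Upstream of them were 73 of its 114 RRACH positions, none of them listed. In the 3′ UTR, 3 positions were listed, all in WT only, among them the AGACA at chr14:75343908, listed by Tombo and Epinano 146 nt after the stop codon. In exon 15, 3 positions were listed, all in KO only.

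Cbll1 (ENSMUSG00000020659, chr12:31484829-31499616, minus strand) had 15 positions in each library, and 11 of its 19 positions were in both. The last exon, which makes up 3379 of 3900 nt and holds most of the coding sequence and the whole 3′ UTR, carried 18 of the 19. The GGACA at chr12:31487588, 307 nt before the stop codon, was listed by Tombo, MINES and Epinano in WT and by Tombo in KO. All 4 KO positions of Epinano in Cbll1 were among its 10 WT positions.

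Mettl16 (ENSMUSG00000010554, chr11:74770830-74828525, plus strand) had 18 positions, 15 in WT and 14 in KO, with 11 in both. The coding sequence held 12 of them, in which 12 of 18 RRACH positions (66.7%) were listed. The transcript used here, ENSMUST00000141755, has a 3′ UTR of 10767 nt. Only 6 of its 156 RRACH positions were listed, the last 935 nt after the stop codon, and the 145 RRACH positions in the 9834 nt beyond were in no list. A shorter coding transcript in the annotation, ENSMUST00000010698, ends at chr11:74817894, before that last listed position at chr11:74818691.

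The GGACT of Mettl16 at chr11:74784124 in exon 3 was listed by Tombo, Nanom6A and m6Anet in WT, with no KO list. Another GGACT lies 7 nt upstream, at chr11:74784117, and was listed by m6Anet in WT. The AAACA at chr11:74796028 in exon 6 was listed by Nanom6A, ELIGOS and Epinano in WT and by Nanom6A in KO. Mettl16 was the gene, beside Wtap, that Nanom6A listed in WT, with 3 positions in WT and 5 in KO, 2 of them in both.

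**Figure D4:**
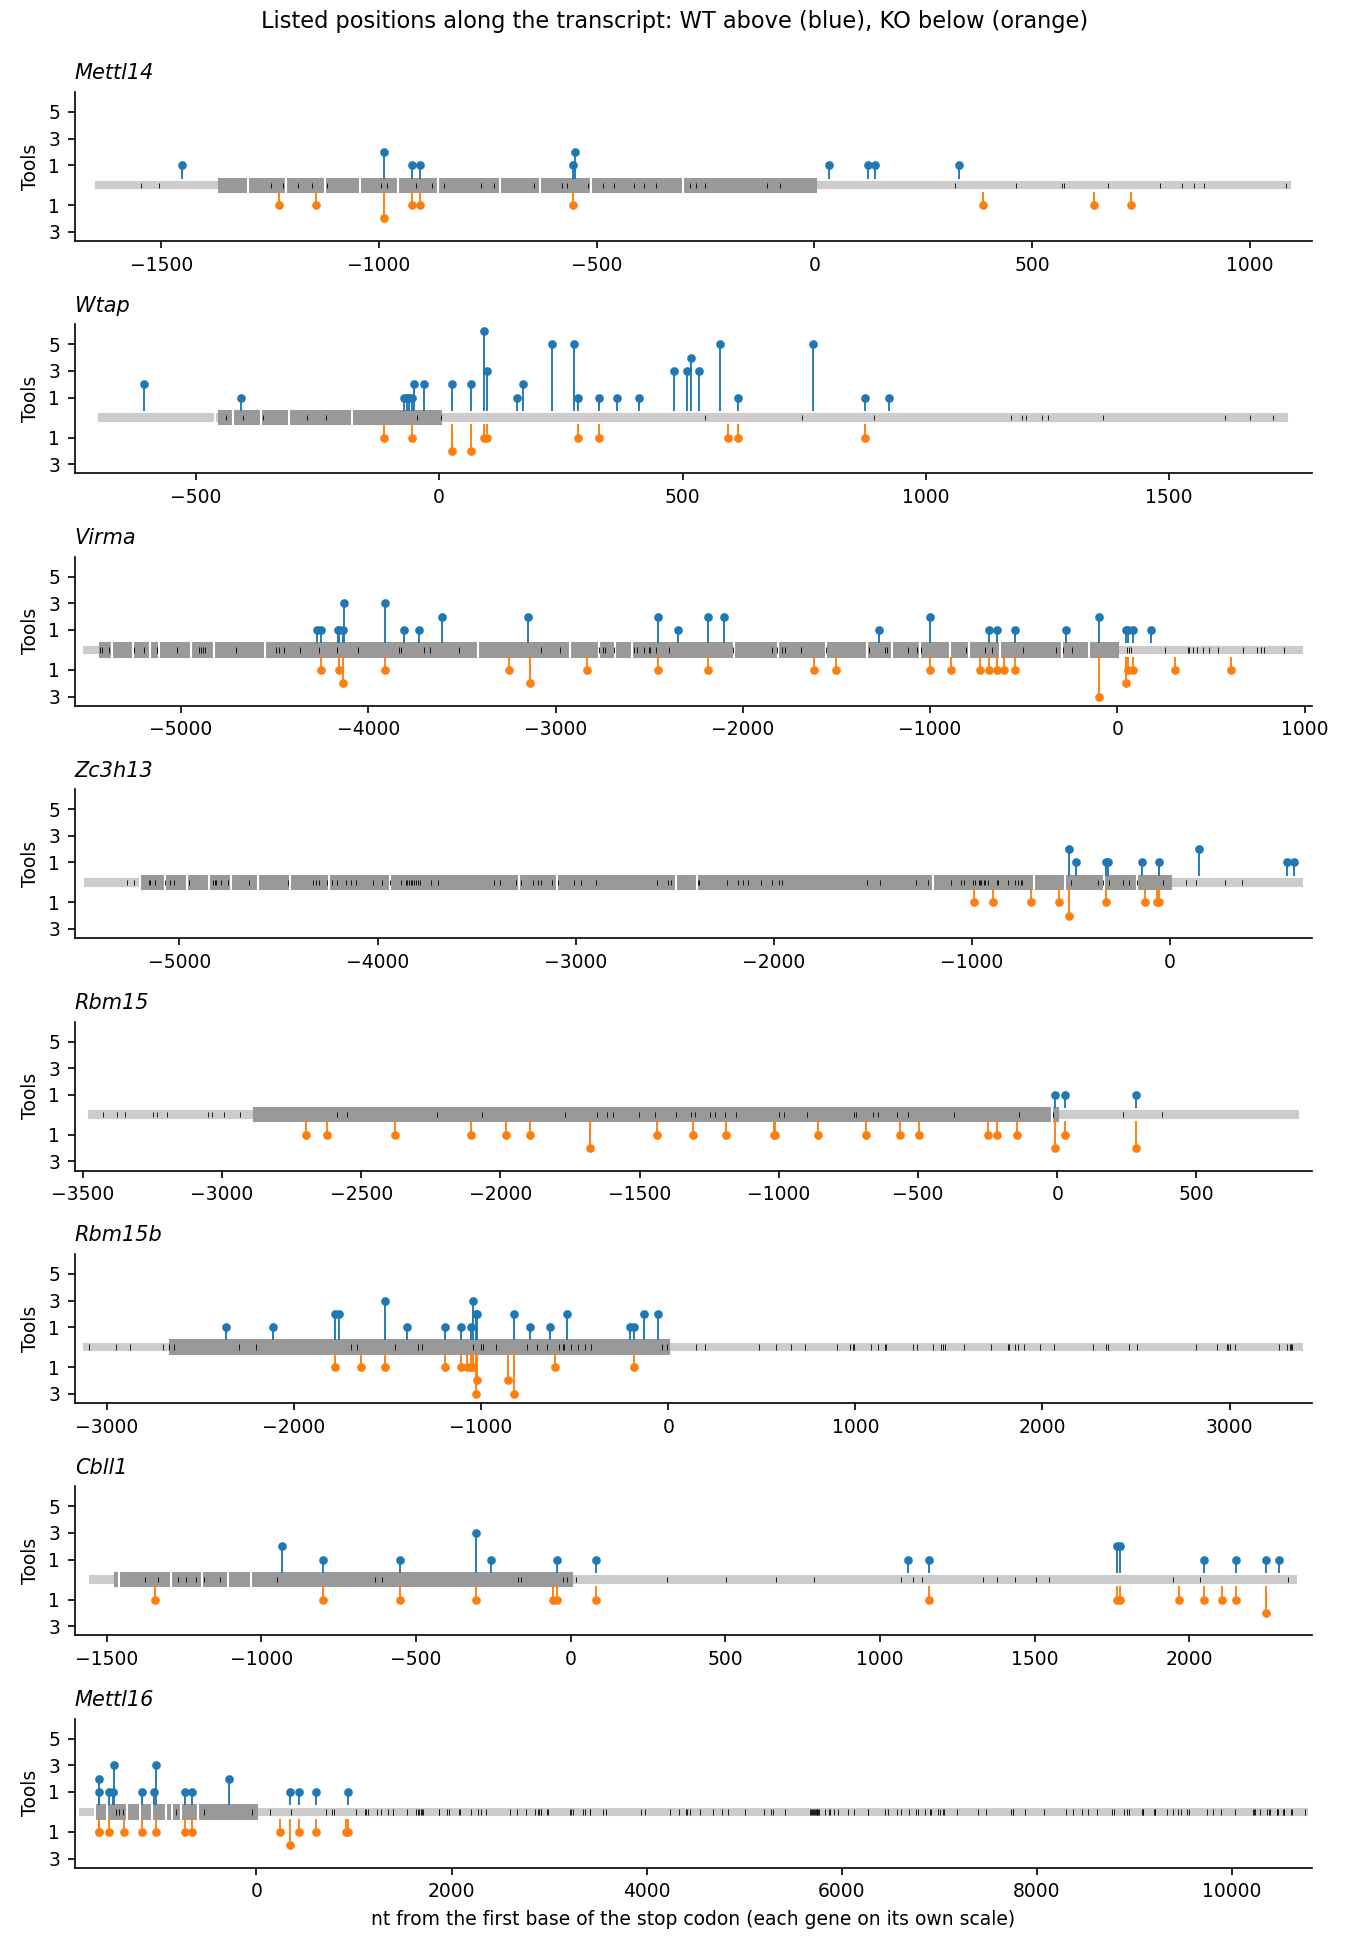
The transcript used for each gene, by distance in nt from the first base of the stop codon, with the coding sequence as a dark box, UTRs as light boxes and exon borders as white lines. Blue stems above give the number of tools that listed a position in WT, orange stems below the number of KO lists, and short black ticks are RRACH positions in no list. Wtap has stems of up to 6 tools after its stop codon, the first exon of Rbm15 has KO stems only, and the 3′ UTR of Rbm15b and most of that of Mettl16 have ticks only.

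Along the transcript, 121 of the 185 positions (65.4%) lay in coding sequence, 62 in 3′ UTRs and 2 in 5′ UTRs, and over all coding genes 56.9% lay in coding sequence. The stop codon was within 200 nt of 30 of the 130 WT positions (23.1%, interval 16.7% to 31.0%), against 22.6% of the WT or comparison positions of all coding genes. Among all RRACH positions of the same 8 transcripts the share was 8.30% (6.49% to 10.6%), lowered by Mettl16 with 2 of 174. Among the RRACH positions of all coding genes it was 12.8%. Of the 55 KO-only positions, 5 lay in this window (9.09%, 3.95% to 19.6%), and over all coding genes 15.1% did, which the interval held. Of all 122 KO positions 20 did (16.4%, 10.9% to 24.0%), against 21.2%, so that KO shares below WT ones were found over all coding genes too. Wtap gave 12 of the 30 on its short coding sequence, and on the transcript with the longest coding sequence of each gene the share was 18.5%. Mettl16 had none of its 15 WT positions in the window and Rbm15b 3 of 20.

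The exons that held positions varied widely in length. Taken over positions, so that an exon counts once for each position in it, the median exon length was 1256 nt in the 7 genes with introns and 595 nt over all coding genes. Within 100 nt of an exon junction lay 45 of 161 positions (28.0%), against 46.7% over all coding genes. The last exons of Cbll1, Mettl14, Mettl16, Virma and Wtap and the first of Rbm15 each exceed 1000 nt, so that many of the RRACH positions of these transcripts lie in long exons too. Long exons were not all listed densely: exon 14 of Zc3h13 (1191 nt) had 0 of 14 RRACH positions listed and exon 10 of Mettl16 (11367 nt) 7 of 159, while in exon 2 of Mettl16 (128 nt) 2 of 2 were listed. Of the 121 coding positions, 37 fell on the first base of a codon, 51 (42.1%) on the second and 33 on the third. Over all coding genes 45.7% fell on the second.

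All 185 positions had an RRACH 5-mer. AGACT was the most frequent of the 12 in WT, at 25 of 130 positions (19.2%, interval 13.4% to 26.8%). It made up 8.83% of all WT or comparison positions and 10.8% of the RRACH positions of the 8 transcripts. In KO, AGACT was above its share of the whole lists too, at 19 of 122 (15.6%) against 7.64% of all KO positions. GGACT, the DNA form of the preferred GGACU, made up 18 of 130 (13.8%, 8.94% to 20.8%), against 11.9% of all WT or comparison positions. In KO it made up 10 of 122 (8.20%, 4.51% to 14.4%), against 9.69% of all KO positions. Support went with GGACT: it was 2 of the 81 WT positions with 1 tool (2.47%, 0.68% to 8.56%) and 16 of the 49 with at least 2 tools (32.7%, 21.2% to 46.6%). Over all WT or comparison positions GGACT made up 7.07% of those with 1 tool and 9394 of the 44820 with at least 2 (20.6% to 21.3%). With at least 3 tools the share was 29.5% there and 29.4% (5 of 17) in the writer genes. Every MINES position of the writer genes had AGACT or a 5-mer that starts with GGAC, so that MINES added support at these alone.

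The rest of the m6A pathway gives a frame for these counts. All 12 genes of a list of other writers, readers and erasers had listed positions, from 7 in Mettl5 to 40 in Alkbh5. Comparison lists held positions of 2 of the 12: 5 of the reader Ythdf1 and 2 of the reader Ythdf2. The support of at least 5 tools in WT or comparison without a KO list was found at 4 positions of Ythdf1 and 2 of the eraser Alkbh5, and none in the other 10 genes. The KO surplus of Rbm15 had like cases here, since the helicase-containing reader Ythdc2 had 0 positions in WT and 8 in KO, and Zcchc4, which methylates 28S rRNA, 1 and 12. In Mettl3, the replaced exons 5 to 7 held 2 positions in WT and 0 in KO. Exons 1 to 7 together held 9 and 0, so the absence in KO covered the exons upstream of the replaced ones too. The whole gene had 13 positions in WT and 5 in KO, so all 5 KO positions lay outside exons 1 to 7.

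Listed positions of cell type markers were counted too, although such counts do not measure expression and cannot settle cell identity. All 6 pluripotency genes examined (Pou5f1, Sox2, Nanog, Klf4, Esrrb and Zfp42) had listed positions, between 18 and 53 each. Of 5 fibroblast genes, 4 had none, and Col1a1 had 3 in KO only. Of 5 genes of early differentiation, 4 had none, and the endoderm factor Sox17 had 12 in WT only. The presence of other cell types in either library was not tested.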

How the data were processed

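Poly(A) RNA of WT and Mettl3 KO mESCs was sequenced by ONT direct RNA sequencing, 1 library each. The authors basecalled the reads with Guppy, aligned them with Minimap2 to GENCODE VM18 transcripts, ran each tool on RRACH sites above a minimum of reads, and converted transcript to genome coordinates (mm10, per the labels). The deposited values are positions (0-based starts), with no score, rate or coverage. The authors set cut-offs per tool against miCLIP data, and none is given in the lists.

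A position was a unique chromosome, start and strand over the 17 lists. Of 16356 transcript identifiers in the lists, 16348 were found in GENCODE M21, among them all 15 on lines of the 8 genes. Each gene was described on the coding transcript that holds most of its positions, with ties going to the transcript named in most lines. Sequences and 5-mers came from the GRCm38 genome of RefSeq. The background was every RRACH position of these transcripts over 10133 coding genes. Named positions were, per gene, the one with most tools, and every position with at least 6 tools in WT, 3 comparison lists or 4 KO lists (the last 2 found none). The other positions named were chosen after their values were seen. Members and gene lists were chosen with earlier results of these data known. Shares have Wilson intervals and ratios of KO to WT exact binomial ones. Coordinate mapping and intervals were tested on simulated data. Alternatives covered gene assignment, RRACH only, 1 site per line, tools left out, support thresholds, windows and matching within 5 bp. Python 3.11.15, pandas 2.3.3, scipy 1.17.1, pysam 0.24.0, Biopython 1.88 and matplotlib 3.10.9 were used.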

Additional observations from a re-analysis of the deposited data

How the results depend on the processing

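Of 60 alternative values, 50 stayed within the limit set for them: 1.5 times for a count, and the 95% interval for a share or a ratio. Some of the 50 could not change. All 185 positions had an RRACH 5-mer, the same on genome and spliced transcript, and lay in exons of 1 gene only. The alternatives on these 3 points therefore restate the main values. Counting 1 site per line gave 384 sites in place of 185 positions and 231 in WT in place of 130, since tools and transcripts each add lines. Without Tombo, 1 Wtap position had at least 5 tools in WT and none in KO in place of 4. It was none of the 4 but chr17:12975201, whose KO list was that of Tombo. With at least 6 tools required there were 0. The share near the stop codon was 16.2% within 100 nt and 36.2% within 400 nt. The GGACT share with at least 2 tools was 32.7%. The next 3 were chosen after seeing the data. Without Wtap, the ratio of KO to WT positions was 2.33 for Nanom6A in place of 0.615, and 3.67 for m6Anet in place of 0.647, so that for both tools 1 gene turned the balance. Without Rbm15, KO-only positions numbered 36 in place of 55. The count of 0 positions in a comparison list was the same under each alternative run. No paired analysis was possible because there is 1 library per condition and no result comes from a test. Depth was unknown, so the effect of a read minimum could not be examined.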
